A study of Rattus norvegicus with 18 samples.

Results

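The Toll-like receptors and their shared co-receptor and adaptor were followed through RNA sequencing of primary rat glia exposed to amyloid β fibrils. The set held 10 genes chosen by symbol, namely Tlr1, Tlr2, Tlr3, Tlr4, Tlr5, Tlr6, Tlr7, Tlr9, Cd14 and Myd88. All 10 were listed among the 17307 gene symbols of the astrocyte libraries and the 17327 of the microglia libraries, of which 16704 were shared. The study compared Aβ42 fibrils, Aβ40 fibrils and no treatment in 2 cell types, with 3 libraries in each of 6 groups and 18 libraries in all. The cells were wild type (WT) and came from the cortex of Sprague-Dawley rat pups at postnatal day 2. Mixed glia were grown to confluence in serum, microglia were collected as the cells that a first shaking released, and astrocytes were the layer that stayed attached after a second, faster shaking. Every group, control included, was then moved to serum-free medium for 3 h and kept for 24 h with or without fibrils, which were given at 25 µM. The groups are named control, Aβ42 and Aβ40 astrocytes and control, Aβ42 and Aβ40 microglia. No source states that the replicates came from separate animals or cultures, so the p-values measure the spread between these libraries, which may be technical.

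Toll-like receptors are innate immune sensors with a leucine-rich ligand-binding ectodomain and a cytoplasmic TIR domain. TLR2, paired with TLR1 or TLR6, and TLR4 and TLR5 signal from the cell surface, whereas TLR3, TLR7 and TLR9 sense nucleic acids in endosomes. CD14 carries lipopolysaccharide to TLR4 and assists other receptors. MyD88 links all of these receptors except TLR3 to NF-κB, while TLR3, and TLR4 in part, use the adaptor TRIF, encoded by Ticam1. In the brain these receptors are best known from microglia, and CD14, TLR2, TLR4 and TLR6 have been described as receptors for fibrillar amyloid β.

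The sequence before the annotated start was examined because the genes moved in different directions. Upstream stretches of 250 bases were found for all 10 genes by symbol in a RefSeq table of build GRCr8, which is not the build to which the reads were aligned. They were searched on both strands for 4 motifs: the NF-κB consensus, the interferon-response motif GAAANNGAA, the PU.1 core GAGGAA and the AP-1 site TGANTCA. Of the 33469 upstream stretches in the table, 6.33% held the NF-κB consensus, 8.12% the interferon-response motif, 23.3% the PU.1 core and 6.34% the AP-1 site. The 4 printed here belong to Tlr2, Myd88, Tlr3 and Tlr9. Tlr2 was higher with fibrils in both cell types, and Myd88 passed against control in astrocytes and not in microglia. Tlr3 and Tlr9 were lower with fibrils in microglia. In astrocytes Tlr3 was higher with both fibrils, and Tlr9 was too low to test. The printed stretches run 5′ to 3′ on the strand of the gene, and capitals mark every motif match.
Tlr2, chr2:171504558-171504807, minus strand: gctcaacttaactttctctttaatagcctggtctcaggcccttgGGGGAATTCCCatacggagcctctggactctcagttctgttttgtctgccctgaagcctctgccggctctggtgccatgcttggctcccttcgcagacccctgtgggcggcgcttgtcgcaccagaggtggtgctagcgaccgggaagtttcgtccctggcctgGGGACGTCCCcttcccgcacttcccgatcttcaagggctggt
Myd88, chr8:127956231-127956480, minus strand: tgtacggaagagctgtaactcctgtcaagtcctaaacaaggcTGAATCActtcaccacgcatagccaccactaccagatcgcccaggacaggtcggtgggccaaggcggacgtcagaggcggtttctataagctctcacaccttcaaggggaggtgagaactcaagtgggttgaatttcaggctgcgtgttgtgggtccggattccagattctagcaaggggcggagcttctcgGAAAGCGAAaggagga
Tlr3, chr16:53554666-53554915, plus strand: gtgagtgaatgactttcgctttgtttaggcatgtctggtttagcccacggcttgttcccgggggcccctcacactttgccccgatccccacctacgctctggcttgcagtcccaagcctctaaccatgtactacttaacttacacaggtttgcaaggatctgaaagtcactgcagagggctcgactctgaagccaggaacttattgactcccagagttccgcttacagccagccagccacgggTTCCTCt
Tlr9, chr8:115743157-115743406, plus strand: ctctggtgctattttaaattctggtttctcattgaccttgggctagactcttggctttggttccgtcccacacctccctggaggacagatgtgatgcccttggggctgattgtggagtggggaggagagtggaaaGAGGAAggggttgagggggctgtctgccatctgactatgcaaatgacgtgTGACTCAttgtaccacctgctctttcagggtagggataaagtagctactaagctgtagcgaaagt
Tlr2 was the 1 gene of the 10 with the NF-κB consensus, in stretches 206 to 196 and 42 to 33 bases upstream, the first of them holding overlapping matches. Myd88 was the 1 gene with the interferon-response motif, 16 to 8 bases upstream, and it also held an AP-1 site 208 to 202 bases upstream. The PU.1 core was found in 6 genes, Tlr3, Tlr4, Tlr6, Tlr7, Tlr9 and Cd14. In Tlr3 it lay 7 to 2 bases upstream, in reverse orientation. In Tlr9 the PU.1 core lay 115 to 110 bases upstream and an AP-1 site 65 to 59. Tlr1 and Tlr5 held none of the 4. These are matches of letters in a short window and were not tied to binding data.

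The libraries held 3674043 to 19013919 counts on genes in astrocytes and 2271834 to 22274367 in microglia. A count of 3, the detection floor used here, stood for 0.158 to 0.817 CPM (counts scaled to one fixed library size) in astrocytes and 0.135 to 1.32 CPM in microglia. All 16 microglia markers were listed, and their summed level ran from 11122 to 12934 CPM in control microglia, 3635 to 4841 CPM with Aβ42 and 4212 to 4846 CPM with Aβ40. In astrocytes the same sum was 591 to 764 CPM in control, 174 to 194 CPM with Aβ42 and 151 to 163 CPM with Aβ40. The 11 astrocyte markers summed to 9060 to 11041 CPM in control astrocytes and to 246 to 294 CPM over all microglia libraries. Microglia Aβ42 replicate 1 stood apart: over all genes its median absolute log2 difference was 0.382 from the other Aβ42 microglia libraries and 0.184 from the Aβ40 microglia. For the other 2 Aβ42 libraries these values were 0.206 and 0.211 against 0.384 and 0.392. Replicate 1 held 2613723 counts on genes and the other 2 held 22274367 and 17687416, while the Aβ40 microglia libraries held 4104702, 4425805 and 2271834. Depth thus moved with this difference. Replicate 1 lay nearer to the Aβ40 than to the other Aβ42 libraries, so its label is in doubt. A wrong label and a difference in depth cannot be told apart here, and neither was tested. Replicate 1 is kept in the group the label gives, and results that rest on it are given with and without it. Without it, both remaining Aβ42 libraries were deeper than every control and Aβ40 library of microglia, so fibril and depth cannot be told apart in those fits.

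At rest, all 10 genes passed as higher in microglia than in astrocytes. For Tlr5 and Tlr9 this was built into their being tested, since 0 of the 9 astrocyte libraries reached the cut-off of the count filter, which asks for 3 libraries at 1.24 CPM or more, and the genes entered through microglia. Control microglia exceeded control astrocytes by a log2 difference of 6.04 (SE 0.30) for Tlr7, the receptor of single-stranded RNA. For Tlr9, the receptor of unmethylated CpG DNA, the fitted difference was 7.40 and rested on 0, 1 and 11 counts in control astrocytes, and without control replicate 3 of these it was 9.30. The difference was 5.86 (SE 0.19) for Tlr2 and 4.34 (SE 0.13) for Cd14. It was smallest for Myd88, at 1.92 (SE 0.14), with an adjusted p of 4.30e-10 in edgeR (quasi-likelihood test, p-values adjusted by Benjamini-Hochberg over all genes tested), which is the test behind every adjusted p given here unless DESeq2 is named. Of the 11581 genes tested across the cell types, 68.8% passed at an adjusted p under 0.05, and the median log2 difference was 4.48 over the 10 genes and -0.0036 over all genes. Cell type and culture preparation cannot be told apart in this comparison.

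On the scale of all 18 libraries, the mean level in control astrocytes was 1.64% of that in control microglia for Tlr2, 1.51% for Tlr7, 4.10% for Tlr4, 4.99% for Cd14, 6.26% for Tlr1, 7.04% for Tlr6, 10.6% for Tlr3 and 26.4% for Myd88. The 16 microglia markers, measured the same way, ran from 1.46% to 59.6% with a median of 5.23%. Myd88 therefore lay above this median and Tlr2 and Tlr7 below it. In such bulk cultures a smaller number of microglia and less RNA per cell cannot be told apart.

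**Figure D1:**
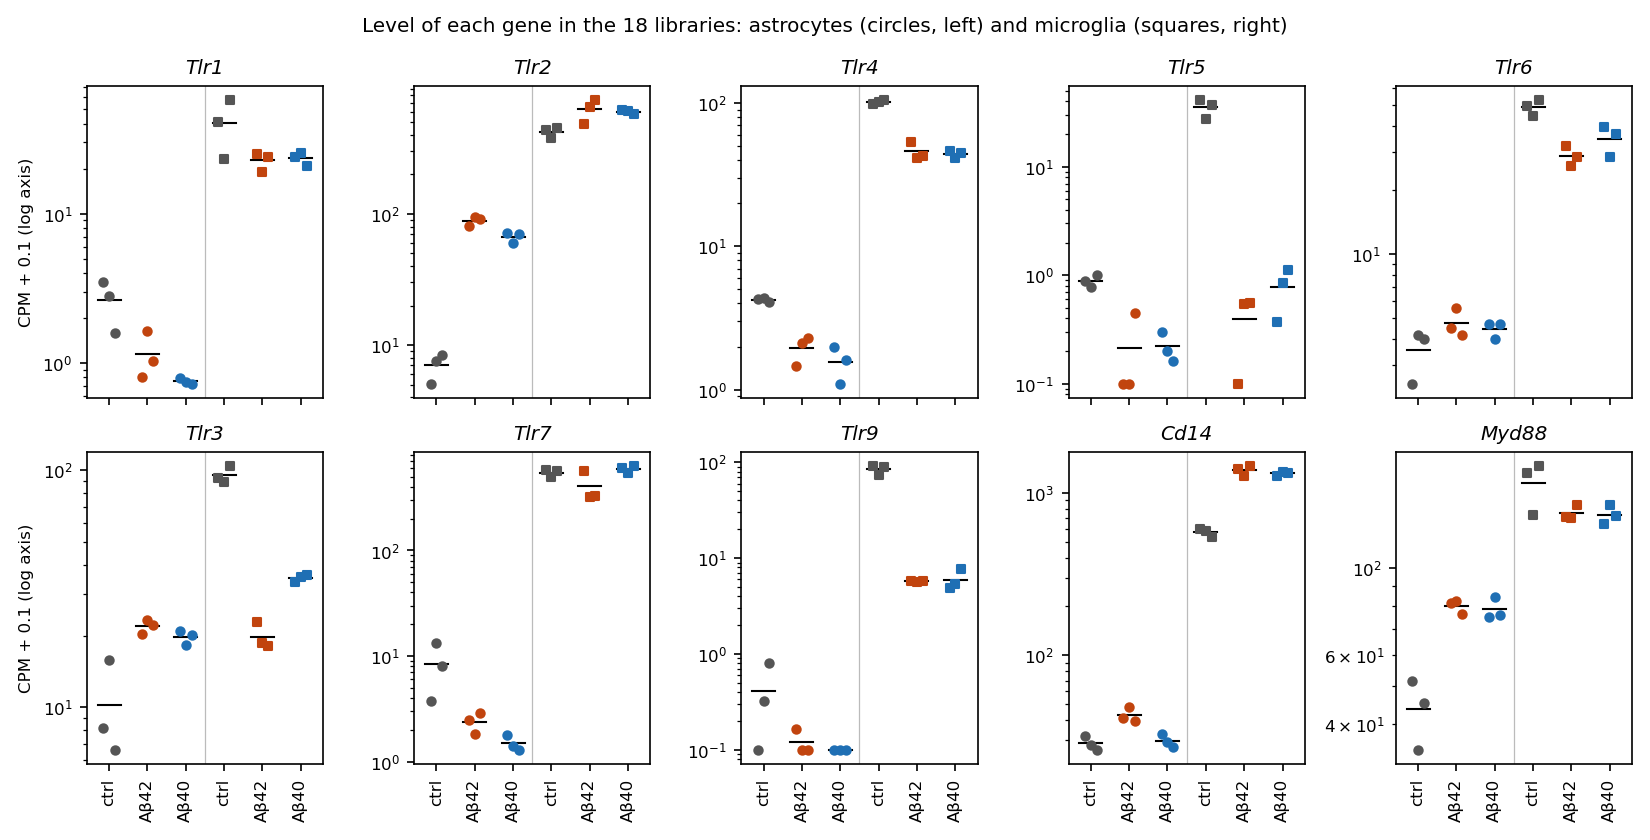
Level of each of the 10 genes in all 18 libraries, in CPM plus 0.1 on a log axis, scaled over all libraries; points are libraries, black lines are group means, circles are astrocytes and squares microglia. Every gene was higher in control microglia than in control astrocytes, and Tlr3 was at like levels in both cell types after Aβ42.

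In astrocytes, most of the measurable genes changed with both fibrils, some upward and others downward. Each gene that passed with both fibrils went the same way with both. Of the 8 genes with enough counts to test, 4 were higher, 3 lower and 1 did not pass with Aβ42, where 37.0% of all 11690 genes tested passed. With Aβ40, 3 were higher, 3 lower and 2 did not pass, where 33.3% of all genes passed. The median log2 change of the 8 was 0.46 with Aβ42 and 0.15 with Aβ40, beside -0.0047 and 0.0017 over all genes. Fibril and control libraries did not overlap for 7 of the 8 with Aβ42 and 6 with Aβ40. The same held for 45.7% and 43.2% of all genes tested.

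Among the surface receptors, Tlr2, which senses lipoproteins, was 5.29, 7.90 and 9.0 CPM in the 3 control astrocyte libraries, 86.0, 100.1 and 94.4 CPM with Aβ42 and 74.2, 63.6 and 74.8 CPM with Aβ40. Every fibril library lay above every control. Tlr2 rose 12.1-fold with Aβ42 (log2 3.60, SE 0.19, adjusted p = 1.31e-07) and 9.18-fold with Aβ40 (log2 3.20, SE 0.19, adjusted p = 3.28e-07). Tlr4, the lipopolysaccharide receptor, was 4.45, 4.55 and 4.29 CPM in control astrocytes, 1.44, 2.12 and 2.28 CPM with Aβ42 and 1.97, 1.07 and 1.59 CPM with Aβ40. All fibril libraries lay below all controls, and the fall was 2.31-fold with Aβ42 (log2 -1.21, SE 0.28, adjusted p = 0.00553) and 2.94-fold with Aβ40 (log2 -1.56, SE 0.28, adjusted p = 0.00123).

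Tlr1 and Tlr6, the partners of TLR2, are similar neighbouring genes whose reads the counting may have split or shared. Tlr1 was 3.62, 2.87 and 1.62 CPM in control astrocytes, 0.755, 1.62 and 0.961 CPM with Aβ42 and 0.727, 0.695 and 0.664 CPM with Aβ40. Its difference was built into its being tested, since 3 control libraries and 1 of the 6 fibril libraries reached the cut-off of the count filter. It fell with Aβ40 (log2 -1.76, SE 0.40, adjusted p = 0.00589) and with Aβ42 (log2 -1.13, SE 0.39, adjusted p = 0.0438). The call with Aβ42 was lost without control replicate 1 (-0.87, adjusted p = 0.132), control replicate 2 (-0.97, 0.0760), Aβ42 replicate 1 (-0.85, 0.170) or Aβ42 replicate 3 (-1.07, 0.104). Tlr6 ranged from 2.5 to 4.31 CPM in control and from 4.17 to 5.76 CPM with fibrils, and its log2 changes of 0.35 with Aβ42 and 0.26 with Aβ40 did not pass (adjusted p = 0.274 and 0.427). Tlr5, the flagellin receptor, was too low to test in astrocytes, with 3, 3 and 14 counts in control, 0, 0 and 3 with Aβ42 and 2, 2 and 1 with Aβ40. Scaled for depth, the summed control counts were 9.94 times those with Aβ42 (95% counting interval 2.95 to 52.2) and 7.89 times those with Aβ40 (2.87 to 26.9). Counting intervals leave out the spread between libraries.

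The endosomal receptors of astrocytes split. Tlr3, the sensor of double-stranded RNA, was 8.63, 16.8 and 7.03 CPM in control, 21.6, 24.6 and 22.9 CPM with Aβ42 and 21.7, 19.5 and 21.3 CPM with Aβ40. All fibril libraries lay above the highest control, replicate 2. It rose 2.22-fold with Aβ42 (log2 1.15, SE 0.27, adjusted p = 0.00564) and 2.01-fold with Aβ40 (log2 1.01, SE 0.26, adjusted p = 0.0127). Tlr7 was 3.90, 14.1 and 8.51 CPM in control astrocytes, 2.54, 1.82 and 2.88 CPM with Aβ42 and 1.77, 1.39 and 1.26 CPM with Aβ40. The controls were spread widely but stayed above all fibril libraries, and Tlr7 fell 3.68-fold with Aβ42 (log2 -1.88, SE 0.37, adjusted p = 0.00216) and 6.12-fold with Aβ40 (log2 -2.61, SE 0.38, adjusted p = 3.26e-04). Tlr9 gave 0, 1 and 11 counts in control astrocytes, 1, 0 and 0 with Aβ42 and 0 in all 3 Aβ40 libraries, which was too low to test. The 12 control counts against 1 with Aβ42 gave a ratio of 17.9 after scaling for depth (95% counting interval 2.65 to 765), and the same 12 against 0 with Aβ40 gave a ratio with a lower 95% counting limit of 5.48. Of these 12 counts, 11 came from control replicate 3, so both ratios rest mainly on 1 library.

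Of the co-receptor and the adaptor, Myd88 passed with both fibrils and Cd14 with Aβ42. Cd14 was 33.7, 29.9 and 28.2 CPM in control astrocytes, 43.5, 50.6 and 41.1 CPM with Aβ42 and 34.3, 31.2 and 28.8 CPM with Aβ40. The Aβ42 libraries lay above all others, whereas the Aβ40 libraries overlapped the controls. Cd14 rose 1.48-fold with Aβ42 (log2 0.57, SE 0.14, adjusted p = 0.00913), and its log2 change with Aβ40 was 0.045 (SE 0.14, adjusted p = 0.843). Without Aβ42 replicate 2 the Aβ42 change was 0.48 and no longer passed (adjusted p = 0.0545). Myd88 was 54.5, 36.4 and 48.7 CPM in control astrocytes, 86.8, 86.8 and 79.4 CPM with Aβ42 and 77.8, 90.1 and 80.5 CPM with Aβ40. All 6 fibril libraries exceeded the controls, and Myd88 rose 1.81-fold with Aβ42 (log2 0.86, SE 0.16, adjusted p = 0.00123) and 1.78-fold with Aβ40 (log2 0.83, SE 0.15, adjusted p = 0.00168).

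Microglia markers moved with these results. Of the 16 markers, 14 fell and 2 did not pass in astrocytes with Aβ42, and 15 fell and 1 did not pass with Aβ40, with median log2 changes of -3.28 and -3.16. Csf1r, the receptor that microglia need to survive, went from a mean of 124 CPM in control astrocytes to 4.97 CPM with Aβ42 and 2.95 CPM with Aβ40. For 7 of the 16, C1qa, C1qb, C1qc, Cx3cr1, P2ry12, Tmem119 and Trem2, the filter was met through the control libraries alone. At most 1 of the 16 was at 0 counts in any astrocyte library. Markers of other cell types moved as well. Of 10 astrocyte markers tested, 7 fell with Aβ42 and 6 with Aβ40, while 2 and 3 rose, and their sum went to 5837 to 6053 CPM and 6509 to 6791 CPM. Oligodendrocyte lineage markers fell in 5 of 8 with each fibril, from a sum of 1725 to 2573 CPM in control to 1272 to 1372 CPM and 1346 to 1366 CPM. Neuron markers fell in 4 of 5 with each, from 125 to 168 CPM to 55.0 to 66.4 CPM and 66.6 to 70.8 CPM. Tlr1, Tlr4 and Tlr7 fell alongside these markers, and Tlr2, Tlr3 and Myd88 rose while they fell. The part of these cell types in the changes was not tested.

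**Figure D2:**
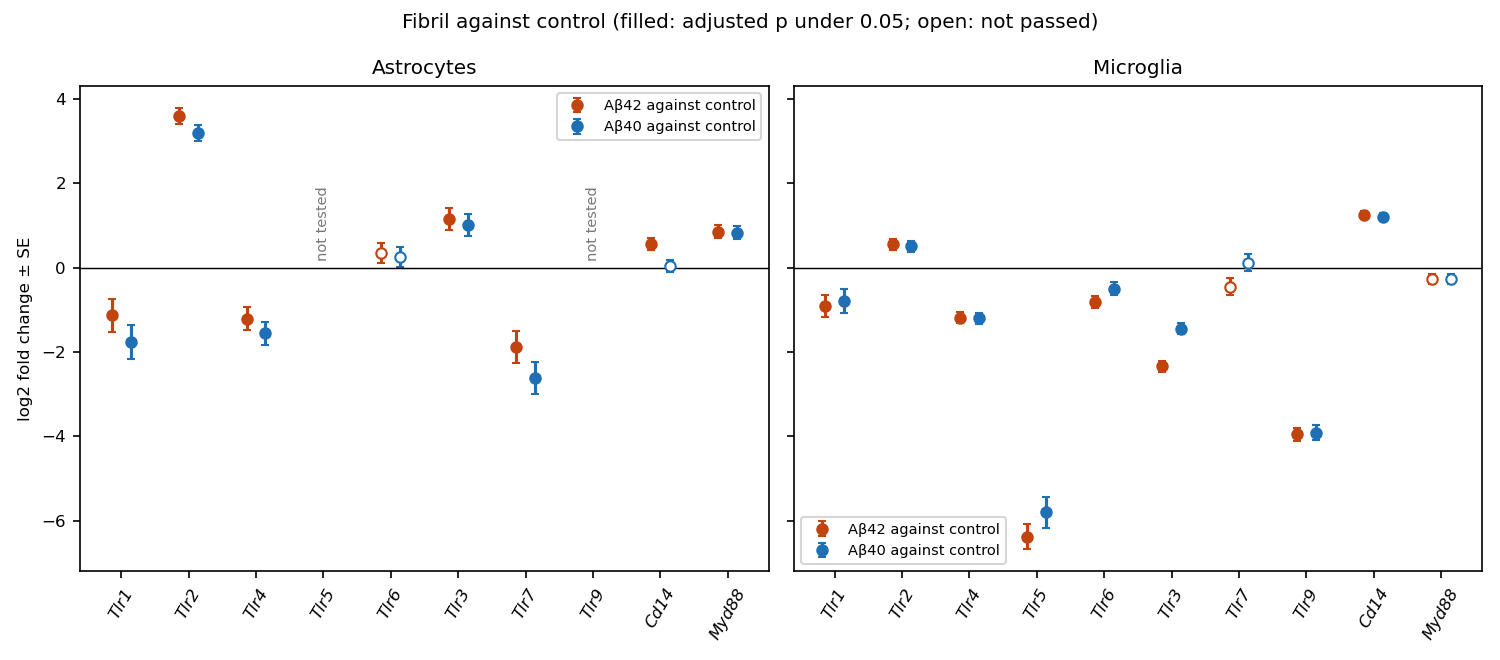
Log2 fold change with its standard error for each fibril against control, by cell type; filled points passed at an adjusted p under 0.05, open points did not, and Tlr5 and Tlr9 were not tested in astrocytes. Tlr2 was 3.60 with Aβ42 in astrocytes and 0.55 in microglia, while Tlr3 was 1.15 in astrocytes and -2.33 in microglia.

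In microglia, Cd14 and Tlr2 rose with both fibrils and the nucleic acid sensors Tlr3 and Tlr9, the flagellin receptor Tlr5, and Tlr1, Tlr4 and Tlr6 fell. Of the 10 genes, 2 were higher, 6 lower and 2 did not pass with Aβ42, where 53.7% of the 10837 genes tested passed. The same numbers, 2 higher, 6 lower and 2 not passed, were found with Aβ40, where 41.0% of all genes passed. The median log2 change of the 10 was -0.86 with Aβ42 and -0.65 with Aβ40, beside 0.0096 and 0.0054 over all genes. Fibril and control libraries did not overlap for 7 of the 10 with each fibril. The same held for 54.0% of all genes tested with Aβ42 and 59.5% with Aβ40. Without Aβ42 replicate 1 all 10 passed with Aβ42, 2 higher and 8 lower, where 7838 genes passed instead of 5820. Tlr5 met the count filter through the control libraries alone, so its difference was built into its being tested.

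Cd14 was 536, 525 and 486 CPM in control microglia, 1283, 1121 and 1277 CPM with Aβ42 and 1146, 1211 and 1210.3 CPM with Aβ40. All fibril libraries lay above all controls, and Cd14 rose 2.38-fold with Aβ42 (log2 1.25, SE 0.10, adjusted p = 5.31e-07) and 2.31-fold with Aβ40 (log2 1.21, SE 0.10, adjusted p = 9.05e-07). Tlr2 was 392, 337 and 409 CPM in control microglia, 443, 577 and 643 CPM with Aβ42 and 553, 540.4 and 523 CPM with Aβ40. Fibril and control libraries did not overlap, and Aβ42 replicate 1 was the lowest of the fibril libraries. Tlr2 rose by 0.55 on the log2 scale with Aβ42 (SE 0.13, adjusted p = 0.00426) and by 0.51 with Aβ40 (SE 0.13, adjusted p = 0.00931). Myd88 was 157, 122 and 165 CPM in control microglia and lay between 116 and 129 CPM in all 6 fibril libraries, and its log2 change of -0.27 with each fibril did not pass (adjusted p = 0.0724 and 0.0976). Without control replicate 2, the lowest control, it was -0.38 and -0.37 and passed (adjusted p = 0.0128 and 0.0189), and without Aβ42 replicate 1 the Aβ42 change of -0.28 passed (adjusted p = 0.0248).

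Tlr5 was 36.9, 24.5 and 33.6 CPM in control microglia, from 313, 127 and 220 counts. The Aβ42 libraries gave 0, 9 and 7 counts and the Aβ40 libraries 1, 3 and 2, so that no fibril library exceeded 0.919 CPM. Scaled for depth, the control counts were 88.0 times those with Aβ42 (95% counting interval 53.8 to 155) and 58.7 times those with Aβ40 (26.8 to 161). Tlr9 was 81.5, 66.4 and 81.3 CPM in control microglia, 5.20, 4.85 and 4.96 CPM with Aβ42 and 4.34, 4.70 and 6.89 CPM with Aβ40. It fell with Aβ42 (log2 -3.95, SE 0.16, adjusted p = 1.78e-09) and with Aβ40 (log2 -3.92, SE 0.18, adjusted p = 5.83e-09), with no overlap between fibril and control libraries.

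Tlr3 was 83.2, 79.6 and 94.0 CPM in control microglia, 20.8, 16.4 and 15.7 CPM with Aβ42 and 30.2, 31.5 and 32.6 CPM with Aβ40, and the 3 groups did not overlap. Tlr3 fell 5.04-fold with Aβ42 (log2 -2.33, SE 0.13, adjusted p = 2.67e-08) and 2.73-fold with Aβ40 (log2 -1.45, SE 0.13, adjusted p = 2.30e-06). Tlr7 took no such course: it was 525, 442 and 509 CPM in control, 522, 283 and 287 CPM with Aβ42 and 544, 489 and 569.5 CPM with Aβ40. Aβ42 replicate 1 lay among the control and Aβ40 values and the other 2 Aβ42 libraries below all of them. The log2 change with Aβ42 was -0.45 (adjusted p = 0.0783) with all libraries and -0.79 (adjusted p = 1.81e-06) without replicate 1, and with Aβ40 it was 0.12 (adjusted p = 0.684).

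Tlr4 was 88.1, 90.2 and 94.6 CPM in control microglia, 49.2, 36.4 and 37.5 CPM with Aβ42 and 41.3, 37.1 and 40.9 CPM with Aβ40. Every fibril library was below every control, and Tlr4 fell with Aβ42 (log2 -1.19, SE 0.12, adjusted p = 7.13e-06) and with Aβ40 (log2 -1.20, SE 0.13, adjusted p = 1.19e-05). Tlr6 was 44.3, 39.8 and 47.6 CPM in control, 29.2, 22.7 and 24.9 CPM with Aβ42 and 35.2, 25.5 and 33.1 CPM with Aβ40. It fell with Aβ42 (log2 -0.82, SE 0.15, adjusted p = 5.82e-04) and with Aβ40 (log2 -0.50, SE 0.15, adjusted p = 0.0201). The Aβ40 call was lost without control replicate 1 (-0.47, adjusted p = 0.0734), control replicate 3 (-0.42, 0.0974) or Aβ40 replicate 2 (-0.36, 0.113). Tlr1 was 36.8, 20.7 and 51.9 CPM in control and 16.8 to 22.8 CPM with fibrils, so control replicate 2 lay among the fibril libraries. Its log2 changes of -0.90 with Aβ42 (adjusted p = 0.0109) and -0.79 with Aβ40 (adjusted p = 0.0371) passed with all libraries. Without control replicate 3 they were -0.55 and -0.44 and did not pass (adjusted p = 0.0735 and 0.201). The Aβ42 call was also lost without Aβ42 replicate 2 (adjusted p = 0.0581), and the Aβ40 call without control replicate 1 (0.0897) or without any 1 of the Aβ40 libraries (0.0761 to 0.104).

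The microglia markers fell in microglia too: with Aβ42 12 of 16 were lower, 1 higher and 3 not passed, and with Aβ40 15 were lower and 1 higher. The higher one was Itgam, the integrin chain CD11b, with log2 changes of 0.90 and 1.04. The median log2 change of the 16 was -1.57 with Aβ42 and -1.53 with Aβ40. For 3 of them, Cx3cr1, P2ry12 and Tmem119, the filter was met through the control libraries alone. A difference in these 3, as in Tlr5, was built into their being tested, so this median is only a description. Tlr1, Tlr4 and Tlr6 fell by less than this median, and Tlr5 and Tlr9 fell by more. Tlr3 fell by more with Aβ42 and by less with Aβ40, and Cd14 and Tlr2 rose. Oligodendrocyte lineage markers rose in 5 of 8 with Aβ42 and 4 of 8 with Aβ40, from a sum of 1963 to 2167 CPM to 2180 to 2833 CPM and 2206 to 2666 CPM. What part the markers have in these results was not tested.

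The 2 fibrils were then compared with each other. In astrocytes none of the 8 tested genes passed, where 0.0855% of all genes did. The difference came nearest for Cd14, higher by 0.52 with Aβ42 (95% interval 0.25 to 0.79, unadjusted p = 0.00321 and adjusted p = 0.259 in edgeR), and Tlr2, higher by 0.40 (95% interval 0.09 to 0.71, unadjusted p = 0.0274, adjusted p = 0.629). These were the 2 genes with an unadjusted p under 0.05. The Aβ42 libraries lay above the Aβ40 libraries without overlap for 4 genes, Tlr1, Tlr2, Tlr7 and Cd14, and such a gap in either direction was found in 18.9% of all genes tested. DESeq2 passed 1 gene, Cd14, at a log2 difference of 0.53 (adjusted p = 0.0407). For the other 6 genes the 95% interval spanned 0, the narrowest being that of Myd88 (-0.27 to 0.32).

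In microglia 1 of the 10 genes passed, where 20.3% of all genes did. Tlr3 was lower with Aβ42 than with Aβ40 by 0.88 on the log2 scale (SE 0.14, adjusted p = 0.00665), and no Aβ42 library reached the lowest Aβ40 library. A gap in either direction was found in 29.3% of all genes tested. Without Aβ42 replicate 1 the Tlr3 difference was -0.96 (adjusted p = 7.26e-06), and Tlr7 and Tlr6 also passed, at -0.91 (adjusted p = 2.23e-06) and -0.38 (adjusted p = 0.0251). In that fit 6004 genes passed instead of 2198. The Aβ42 libraries left in it were deeper than every Aβ40 library, so fibril and depth cannot be told apart there. With all libraries Tlr7 was at -0.56 (95% interval -0.96 to -0.17, adjusted p = 0.0644) and Tlr6 at -0.32 (-0.62 to -0.0084, adjusted p = 0.153). The Tlr6 interval left out 0 although the unadjusted p in edgeR was 0.0674. Such intervals are normal ones built from the SE and are too narrow for 3 libraries a group. The interval was narrowest for Cd14, from -0.14 to 0.23, and for Myd88, from -0.24 to 0.24.

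**Figure D3:**
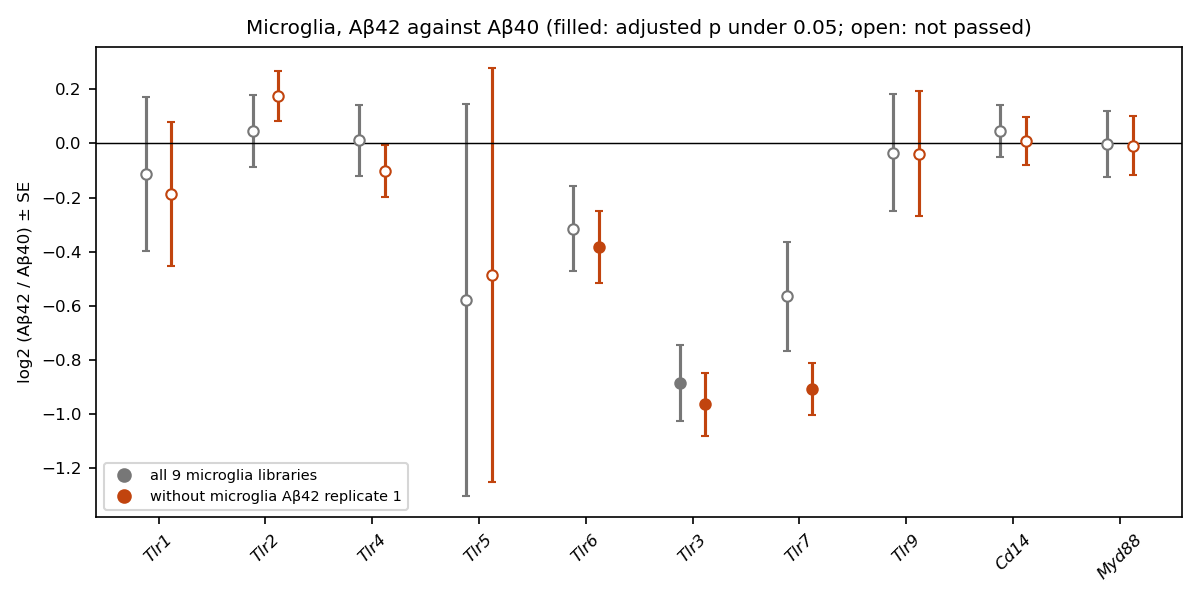
Log2 difference between Aβ42 and Aβ40 microglia with its standard error, with all 9 microglia libraries (grey) and without Aβ42 replicate 1 (orange); filled points passed at an adjusted p under 0.05. Tlr3 passed in both, and Tlr6 and Tlr7 without the library that stood apart.

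Whether the cell types differed in their response was tested as an interaction, as the log2 change in microglia minus that in astrocytes. Of the 10 genes, 6 passed with Aβ42, 2 in favour of microglia and 4 in favour of astrocytes, where 37.3% of 11581 genes passed. With Aβ40 the counts were again 6, 2 and 4, where 32.5% passed. The response was more positive in astrocytes for Tlr2 (-3.04, SE 0.23, with Aβ42 and -2.70, SE 0.23, with Aβ40), for Tlr3 (-3.49, SE 0.30, and -2.48, SE 0.30), for Myd88 (-1.14 and -1.12) and for Tlr6 (-1.15 and -0.77). It was more positive in microglia for Cd14 (0.67 and 1.14) and for Tlr7 (1.42 and 2.71). Without microglia Aβ42 replicate 1 the Tlr7 difference with Aβ42 was 1.10 and still passed (adjusted p = 0.0163). The call for Tlr6 with Aβ40 (adjusted p = 0.0337) was lost with DESeq2 (adjusted p = 0.0571) and with library totals as the scaling (adjusted p = 0.0526). It was also lost without astrocyte control replicate 1, astrocyte Aβ40 replicate 1 or 3, microglia control replicate 1 or 3, or microglia Aβ40 replicate 2 (-0.77 to -0.59, adjusted p = 0.0567 to 0.0972). For Tlr4 the difference was 0.025 with Aβ42 (95% interval -0.43 to 0.48) and 0.34 with Aβ40 (-0.20 to 0.89), neither of which passed. Tlr1, at 0.21 and 0.93, did not pass, nor did Tlr5, at -3.28 and -3.0 (adjusted p = 0.0639 and 0.0518), and Tlr9, at -0.34 and 1.34, both of which had few or no counts in astrocytes. Tlr5 passed in DESeq2 (-3.12, adjusted p = 0.00881, and -2.83, adjusted p = 0.0165) and, with Aβ40, in a fit of the compared groups alone (adjusted p = 0.0210). With Aβ42 it passed without astrocyte Aβ42 replicate 1 (-4.05, adjusted p = 0.0211) or 2 (-3.76, 0.0364) and shrank to -0.35 (adjusted p = 0.620) without replicate 3, which held all 3 counts of that group. With Aβ40 it passed without microglia control replicate 2 (-3.15, 0.0413).

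As a share of the microglia level under the same treatment, astrocyte Tlr2 went from 1.64% in control to 14.2% with Aβ42 and 11.2% with Aβ40. Tlr3 went from 10.6% to 111% and 56.4%, and Myd88 from 26.4% to 58.0% and 57.3%. Cd14 went from 4.99% to 3.11% and 2.25%, Tlr7 from 1.51% to 0.565% and 0.235%, and Tlr4 from 4.10% to 4.03% and 3.32%. The median over the 16 microglia markers went from 5.23% to 1.48% and 0.971%, but the markers did not move together, and P2ry12, a purinergic receptor of resting microglia, went from 4.62% to 35.6% and 34.3%. The Aβ42 libraries of the 2 cell types overlapped for Tlr5, which was near the floor in both, and for Tlr3, with a mean of 21.9 CPM in astrocytes and 19.7 CPM in microglia on the scale of 18 libraries.

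**Figure D4:**
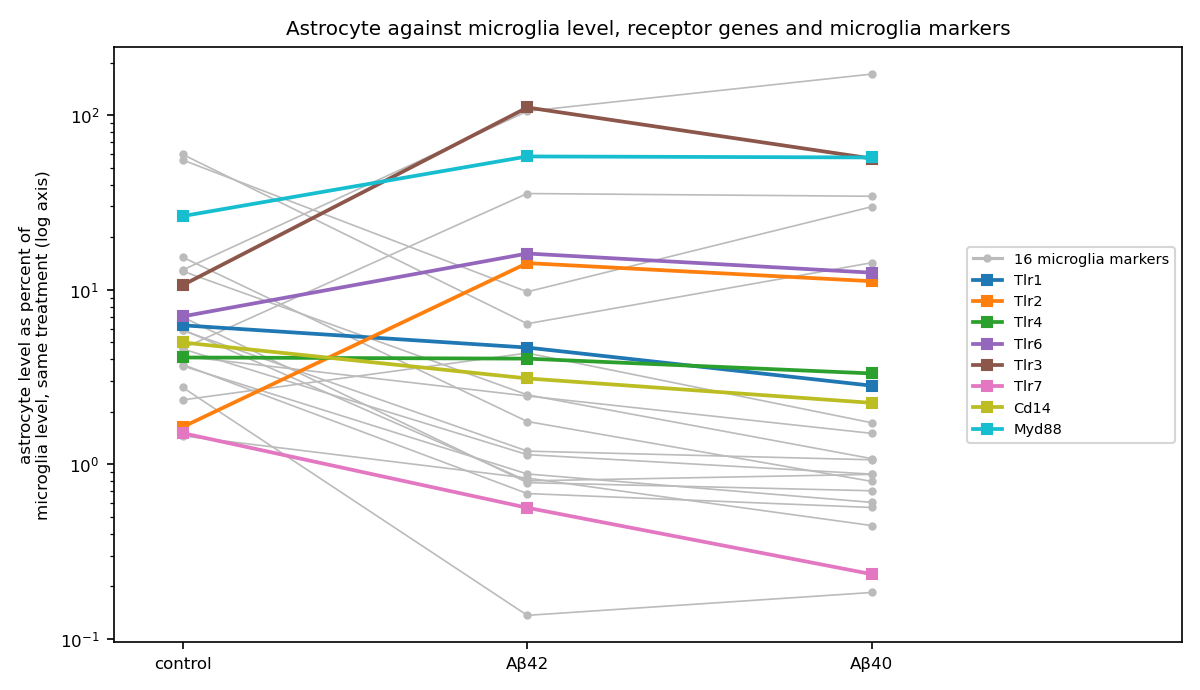
Mean level in astrocytes as a percent of the mean level in microglia under the same treatment, on a log axis, for 8 receptor genes (coloured) and 16 microglia markers (grey lines). The marker median went from 5.23% in control to 1.48% with Aβ42, while Tlr2 went from 1.64% to 14.2% and Tlr3 from 10.6% to 111%.

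The remaining pathway genes were read from lists by role. Over all genes tested, 16.5% were higher and 20.4% lower with Aβ42 in astrocytes and 14.9% and 18.4% with Aβ40, while in microglia these shares were 27.1% and 26.6% with Aβ42 and 19.6% and 21.4% with Aβ40. List counts are read beside these shares, and a count near them is no result about its list. Genes whose filter was met through 1 side alone, so that the difference was built in, are marked as filter-bound. Tlr8, an endosomal RNA sensor outside the set of 10, filter-bound in astrocytes, fell in astrocytes (log2 -2.11 with Aβ42 and -3.63 with Aβ40) and in microglia (-2.08 and -1.58). Paired values after this are log2 changes with Aβ42 and then with Aβ40. Tlr10, Tlr11 and Tlr12 were too low to test in either cell type. Among 11 accessory and trafficking proteins in microglia, 8 fell and 1 rose with each fibril, where 26.6% and 21.4% of all genes were lower. Cd36, the scavenger receptor that works with TLR2, filter-bound, fell from a control mean of 36.1 CPM to 0.486 and 0.230 CPM, and Ly86, which encodes MD-1, fell too (-4.94 and -4.47). Lbp, the lipopolysaccharide-binding protein, filter-bound, passed as higher, from a control mean of 0.0393 CPM, under the floor, to 3.21 and 1.92 CPM. In astrocytes 10 of the 11 were tested: 3 rose and 3 fell with Aβ42, and 2 rose and 3 fell with Aβ40. Unc93b1, the chaperone that takes the endosomal receptors to their compartment, rose by 0.88 and 0.80 in astrocytes, and Slc15a4, an endolysosomal transporter needed for their signalling, by 0.65 and 0.59. Cd180, which pairs with MD-1, fell there (-3.71 and -4.13), as did Ly86, filter-bound in astrocytes (-4.80 and -4.31).

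Of the 5 other adaptors 3 were listed and tested. In microglia 2 fell and 1 rose with Aβ42 and 1 fell with Aβ40, and in astrocytes 1 fell with Aβ42 and 0 passed with Aβ40. Ticam2, which links TLR4 to TRIF, fell in microglia (-1.86 and -1.76). Ticam1 itself and Tirap were not among the gene symbols listed for either cell type. Among 15 kinases and ubiquitin ligases tested, 6 rose and 2 fell in astrocytes with Aβ42 and 5 rose and 3 fell with Aβ40, and in microglia 6 rose and 7 fell with Aβ42 and 5 rose and 5 fell with Aβ40. Irak2, the MyD88-dependent kinase, rose by 1.46 and 1.26 in astrocytes and by 2.36 and 2.38 in microglia, and Ikbke by 2.76 and 2.73 and by 1.52 and 2.02. Among the 9 inhibitors tested, 6 rose and 1 fell in astrocytes with each fibril, and 5 rose and 2 fell in microglia with each. Nod2 and Socs1 were filter-bound in astrocytes, and Socs1 in microglia. Nod2, listed as an inhibitor though it is itself a sensor of bacterial wall fragments, rose in astrocytes from a control mean of 0.402 CPM to 25.6 and 17.1 CPM, and Socs1, a suppressor of cytokine signalling, rose in microglia from 0.399 CPM to 11.6 and 4.16 CPM, both filter-bound there. Of the endogenous ligands, 1 rose and 2 fell among 6 tested in astrocytes with each fibril, and among 8 in microglia 3 rose with Aβ42 and 5 with Aβ40, with 0 falling. In microglia 3 of these 8, Dcn, S100a8 and S100a9, were filter-bound, so a rise in them was built in. Tnc, an extracellular matrix glycoprotein, rose in astrocytes (0.87 and 0.67), Bgn, the proteoglycan biglycan, fell in astrocytes (-1.73 and -1.82), and Dcn, the related decorin, filter-bound, rose in microglia from a control mean of 0.427 CPM to 71.1 and 64.6 CPM.

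The genes known to be switched on through MyD88 all passed as higher where they could be tested, 7 of 7 in astrocytes and 8 of 8 in microglia with each fibril. Of these, 5 in astrocytes (Cxcl2, Il1b, Il6, Ptgs2 and Tnf) and 2 in microglia (Il6 and Il12b) were filter-bound. The other 2 in astrocytes were Cxcl1, a neutrophil chemokine, and Nfkbia, the NF-κB inhibitor, which rose by 5.83 and 2.65 with Aβ42. Their median log2 change was 5.83 with Aβ42 and 5.55 with Aβ40 in astrocytes and 6.10 and 6.27 in microglia. Cxcl2, also a neutrophil chemokine, rose in astrocytes from a control mean of 0.174 CPM to 92.1 and 60.6 CPM, and Il6, an inflammatory cytokine, rose by 7.75 and 7.94 in microglia. All 4 tested genes of the 6 linked to TRIF rose in both cell types, Ccl5 being filter-bound in microglia, with medians of 5.29 and 5.09 in astrocytes and 2.53 and 2.62 in microglia. Ccl5 rose by 7.91 and 7.60 in astrocytes and by 6.60 and 5.48 in microglia. In the interaction test 3 of these 4 had a larger response in astrocytes with each fibril, and 1 did not pass. Over all genes tested, 17.9% passed in that direction with Aβ42 and 16.5% with Aβ40. Of the 8 MyD88-linked genes in the same test, 2 passed in that direction with each fibril. In the other direction 0 passed with Aβ42 and 1 with Aβ40, and 6 and 5 did not pass. Irf7 and Isg15 were already higher in control microglia than in control astrocytes. A difference between the 2 lists was not tested. The lists were chosen with results of these data known, and comparisons of the 2 fibrils with control share their control libraries.

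**Figure D5:**
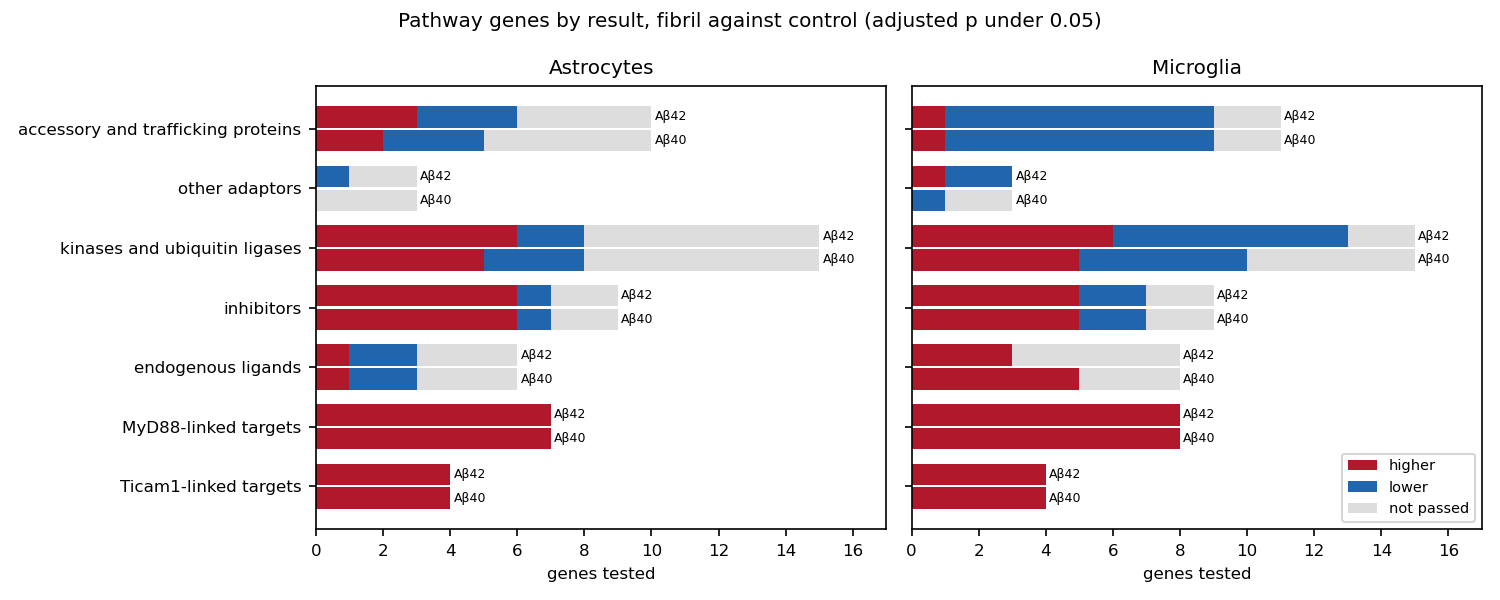
Number of genes tested in each pathway list that were higher, lower or not passed for each fibril against control, by cell type, from edgeR at an adjusted p under 0.05. All tested MyD88-linked targets were higher, 5 of 7 in astrocytes and 2 of 8 in microglia having met the count filter through fibril libraries alone, and 8 of 11 accessory and trafficking proteins fell in microglia with each fibril.

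By the pattern of the 6 group means, the genes most like Tlr2 among the 11581 tested were Lmo2 (root mean square log2 difference 0.32), Slfn2 (0.37) and Map3k8 (0.40). Those most like Cd14 were Csf2rb (0.24), Ccdc125 (0.25) and Osm (0.25). Within the set of 10, the nearest pair was Tlr1 and Tlr4, at 0.23, followed by Tlr3 and Myd88, at 0.60.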

How the data were processed

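RNA of 18 primary rat glia libraries was prepared with a stranded mRNA kit. Per the labels and the study's methods, the authors aligned the reads to rn5 with STAR and used Salmon and DESeq2, and they deposited raw counts per gene for each library. Tool versions and the strand setting of the counting are not given in the sources used here. Off-gene rows, 21.7% to 34.2% of a library's counts, were left out. Genes were kept by filterByExpr, scaled by TMM and tested with edgeR 4.0.16 (quasi-likelihood test, R 4.3.3) over the 9 libraries of a cell type, or over all 18 where cell types were compared, with Benjamini-Hochberg adjustment over all genes tested. A gene passed at an adjusted p under 0.05 at any fold. The scripts were tested on simulated data. Alternatives were DESeq2 1.42.0, other scalings, filters and groupings of the fit, a 2-fold minimum, a replicate block and leaving out each library. Counting intervals are exact 95% binomial ones and cover counting error only. The 95% intervals of log2 differences are normal ones built from the SE. They are narrower than the quasi-likelihood test implies, and whether a gene passed rests on the test. No 2 libraries of the same group agreed within sampling noise, and libraries of different groups were not compared in this way. All 10 genes were named throughout, and from each pathway list up to 2 per direction with the largest changes among those passing without overlap. The genes and lists were chosen with earlier results of these data known.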

Additional observations from a re-analysis of the deposited data

Results flagged for a closer look

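Each of the following results met the same criterion, a tested difference between the cell types in the response to 1 fibril, as the log2 change in microglia minus that in astrocytes in edgeR. With Aβ42 the difference was -3.04 for Tlr2 (adjusted p = 8.89e-09), -3.49 for Tlr3 (3.84e-08), -1.15 for Tlr6 (0.00204) and -1.14 for Myd88 (1.31e-04), where the astrocyte response was the more positive. It was 1.42 for Tlr7 (0.0107) and 0.67 for Cd14 (0.00279), where the microglia response was. Without microglia Aβ42 replicate 1 the value for Tlr7 was 1.10 (0.0163). With Aβ40 the difference was -2.70 for Tlr2 (adjusted p = 5.37e-08), -2.48 for Tlr3 (3.15e-06), -0.77 for Tlr6 (0.0337), -1.12 for Myd88 (1.88e-04), 2.71 for Tlr7 (6.12e-05) and 1.14 for Cd14 (2.20e-05). Tlr3 moved in opposite directions in the cell types under both fibrils, and passed against control in each. The microglia markers fell in both cell types, and their part in these differences was not tested.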

How the results depend on the processing

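Counting Tlr8 with the 10 genes, 58 results passed and were recomputed in 876 alternatives: 836 still passed in the same direction, 40 kept the direction without passing and 0 reversed. The 35 results that did not pass gave 529 values, of which 20 passed and 27 changed sign. The number of the 10 genes passing moved by over 1.5 times as follows. For Aβ42 against Aβ40 in astrocytes it was 1 with DESeq2 and 1 with the compared groups fitted alone, instead of 0. At 2-fold or more it was 5 for each fibril in microglia instead of 8, and 0 for Aβ42 against Aβ40 in microglia instead of 1. That last number was 2 with library totals and 2 with no filter, and 1 to 3 over fits leaving out 1 library. For control microglia against control astrocytes it was 6 with 10 counts required in every library, where fewer genes could be tested. Genes passing for Aβ42 against Aβ40 were 10 in the main test and 141 with DESeq2 in astrocytes, and 2198 in the main test in microglia and 752 with the replicate block, 106 with the compared groups alone and 6004 without Aβ42 replicate 1.

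Sign changes arose in differences near 0 or with near-empty astrocyte libraries. Myd88, Aβ42 against Aβ40 in microglia, was 0.0023 with library totals, 0.0048 with no filter and 0.0056 with 10 counts in every library, against -0.0020. Tlr9 in the Aβ42 response was 0.073 with DESeq2 against -0.34. Leaving out 1 library gave -0.017 to 0.12 for Cd14 with Aβ40 in astrocytes. For Aβ42 against Aβ40 it gave -0.042 to 0.17 for Tlr6 and -0.018 to 0.089 for Myd88 in astrocytes, and in microglia -0.19 to 0.030 for Tlr1, -0.073 to 0.18 for Tlr2, -0.10 to 0.093 for Tlr4, -0.16 to 0.12 for Tlr9 and -0.046 to 0.036 for Myd88. In the Aβ42 response it gave -0.071 to 0.68 for Tlr1, -0.20 to 0.15 for Tlr4, -2.26 to 1.27 for Tlr9 and -0.45 to 0.28 for Tlr8, and in the Aβ40 response -0.62 to 1.70 for Tlr9. The cause of these changes was not tested.

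The labels do not say whether same-numbered libraries were paired. Deviations of same-numbered libraries from their group means correlated at -0.53 to 0.36 in astrocytes and at -0.19 to 0.22 in microglia. With 3 libraries a group these values cannot decide whether a pairing exists. With the replicate block 91 of 93 results were unchanged, Tlr7 with Aβ42 in microglia passed (-0.48, adjusted p = 0.0377) and Tlr1 with Aβ40 in microglia did not (-0.70, adjusted p = 0.0521). With 3 libraries a group, and counts near the floor for Tlr5 and Tlr9 in astrocytes, depth limits what can be said of these 2 genes there.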
